A study of Mus musculus with 61 samples.

Results

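The 9 genes described here encode parts of the fibroblast growth factor (FGF) pathway: the ligand Fgf4, the receptors Fgfr1 and Fgfr2, the adaptor Grb2, the feedback inhibitors Spry2, Spry4 and Dusp6, and the ETS transcription factors Etv4 and Etv5. They were chosen by symbol, and all 9 were found among the 24551 genes of the window table and among the 22911 genes of the genotype table. Of the 9, 8 passed the low-count filter in both tables, and Etv4 did not. The study profiled mouse preimplantation development by SLAM-seq, in which cells take up 4-thiouridine (4SU) and alkylation marks the labelled RNA. Oocytes and embryos came from superovulated females, embryos were made by in vitro fertilisation, and each received 2 mM 4SU for 6 h. The window libraries, made from 10 embryos each per the series design, were wild-type (WT) MII oocytes and WT embryos labelled at 0-6hpi, 6-12hpi, 12-18hpi, 18-24hpi, 24-30hpi, 30-36hpi, 48-54hpi, 70-76hpi and 90-96hpi (hours post insemination), with 3 libraries per group. The genotype libraries were Klf17 KO (3 libraries), Klf17 maternal KO (mKO, 3 libraries), Klf17 paternal KO (pKO, 2 libraries) and WT embryos (ctrl, 3 libraries), all labelled with 4SU at the stage the design text calls M2C. KLF17 is a zinc finger transcription factor of the Krüppel-like family. How the alleles were made, and whether replicates came from separate litters or cultures, is not given in the sources used here, so p-values measure only the spread between these libraries.

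FGF4 is a secreted ligand that binds FGFR1 and FGFR2, receptor tyrosine kinases whose activation recruits GRB2 and, through RAS, the ERK kinases. In the blastocyst, FGF4 from epiblast precursors is needed for the primitive endoderm, the extraembryonic lineage that forms beside the epiblast, and FGF signalling also sustains trophoblast stem cells. ERK activity induces its own restraints, among them Sprouty proteins and the ERK phosphatase DUSP6, together with the ETS factors ETV4 and ETV5, so the mRNAs of these genes are widely used as readouts of the pathway.

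Values are read counts normalised to the TMM-scaled library total (CPM), and fold changes are log2 ratios with their standard error (SE) from the edgeR quasi-likelihood fit over all tested genes, called at an adjusted p below 0.05. Depth was 7395193 to 13301570 reads per library in the windows and 14080264 to 23018252 in the genotypes. Replicate libraries correlated at 0.976 to 0.993 in the windows and at 0.913 to 0.980 in the genotypes. Whether the deposited counts part labelled from older RNA is not given in the sources used here, so a value is read as an RNA level and not as a rate of synthesis. That level is a share of the scaled library total, so a rise or fall is relative, and the amount per embryo was not measured. Because whole embryos were pooled, fewer cells of a type and less RNA per cell cannot be told apart. Defining markers followed the labels: 8 oocyte markers summed to 9928 to 10136 CPM in the MII libraries, and 8 trophectoderm markers summed to 5652 to 9116 CPM at 90-96hpi. Cumulus cell markers summed to 2.54 to 3.19 CPM in MII oocytes, with Amh, Amhr2, Foxl2, Fshr, Ptx3 and Tnfaip6 at 0.

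Stretches of 250 bases before the annotated start (RefSeq, GRCm38.p6, gene strand, 5′ to 3′) are shown for the 2 pairs of genes whose levels moved most closely together over the windows, Fgf4 with Etv5 and Spry2 with Dusp6. Capitals mark GGGCGG, the GC box bound by Sp and Krüppel-like factors, or the reverse complement of CGGAAG, the core bound by ETS factors.
Fgf4: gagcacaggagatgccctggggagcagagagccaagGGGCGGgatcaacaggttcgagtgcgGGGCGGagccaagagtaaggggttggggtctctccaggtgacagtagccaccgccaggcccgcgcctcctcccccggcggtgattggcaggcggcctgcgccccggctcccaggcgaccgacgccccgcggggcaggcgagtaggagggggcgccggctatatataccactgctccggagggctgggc
Etv5: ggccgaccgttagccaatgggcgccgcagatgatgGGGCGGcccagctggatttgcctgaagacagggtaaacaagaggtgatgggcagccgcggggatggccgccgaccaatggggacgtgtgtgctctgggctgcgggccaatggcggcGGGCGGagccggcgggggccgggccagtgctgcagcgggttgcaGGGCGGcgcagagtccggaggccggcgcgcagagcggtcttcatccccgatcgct
Spry2: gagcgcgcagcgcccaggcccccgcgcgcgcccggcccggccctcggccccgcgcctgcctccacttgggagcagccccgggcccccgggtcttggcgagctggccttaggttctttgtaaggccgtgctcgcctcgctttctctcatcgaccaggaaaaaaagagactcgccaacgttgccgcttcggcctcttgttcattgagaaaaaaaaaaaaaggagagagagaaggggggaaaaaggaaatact
Dusp6: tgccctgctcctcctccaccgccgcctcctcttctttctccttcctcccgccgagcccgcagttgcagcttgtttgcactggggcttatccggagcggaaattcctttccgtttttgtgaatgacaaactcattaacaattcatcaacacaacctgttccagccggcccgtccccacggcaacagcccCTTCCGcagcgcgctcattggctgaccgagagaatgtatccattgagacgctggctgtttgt
They lie at chr7:144861136-144861385 on the plus strand for Fgf4, chr16:22439571-22439820 on the minus strand for Etv5, chr14:105896820-105897069 on the minus strand for Spry2 and chr10:99262981-99263230 on the plus strand for Dusp6. The search covered both strands, no match overlapped another motif, and CCACACCC (an element bound by Krüppel-like factors) and GGATTA (a core bound by OBOX and OTX homeobox factors) were also searched. GGGCGG occurs 2 times before Fgf4 and 3 times before this start of Etv5, and is present in 32.7% of 32851 mouse windows of the same length. CGGAAG occurs 1 time, before Dusp6, and is present in 13.6% of those windows. CCACACCC and GGATTA, present in 3.20% and 6.25% of windows, are not in these 4 stretches, and none of the 4 motifs is in the Spry2 stretch. The promoter table has another start for Etv5, at chr16:22438369-22438618, whose stretch holds none of the 4 motifs. In all, 6 of the 9 genes had an entry in the promoter table. The stretches of Fgfr2 and Grb2, not shown, hold none of the 4 motifs.

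Of the 8 tested pathway genes, 3 were called at 0-6hpi, 2 at 6-12hpi and 0 at 12-18hpi. Between 5 and 7 were called at each step from 18-24hpi to 70-76hpi, where calls were also more frequent among all tested genes. In 0-6hpi embryos against MII oocytes, 2 genes were called higher and 1 lower, where 12.9% of all tested genes were called higher and 8.28% lower (21.2% in all). In 6-12hpi against 0-6hpi, 1 was higher and 1 lower, beside 4.73% and 2.93% of all genes (7.66% in all). In 12-18hpi against 6-12hpi none was called, beside 7.11% of all genes called higher and 6.09% lower (13.2% in all). Dusp6 alone of the 8 had an unadjusted p below 0.05 in that step, and DESeq2 called it. In 18-24hpi against 12-18hpi, 4 were higher and 2 lower, beside 18.1% and 14.9% of all genes (33% in all). Of the 4 that rose, Fgf4 and Spry2 had been close to absent before. In 24-30hpi against 18-24hpi, 4 were higher and 1 lower, beside 21% and 24.4% of all genes (45.4% in all). In 30-36hpi against 24-30hpi, 3 were higher and 3 lower, beside 21% and 29% (49.9% in all), and in 48-54hpi against 30-36hpi 4 were higher and 3 lower, beside 28.7% and 33.3% (62% in all). That step changed every tested member but Spry2. In 70-76hpi against 48-54hpi, 1 was higher and 4 lower, beside 21.6% and 21.8% of all genes (43.4% in all). In 90-96hpi against 70-76hpi, 4 were higher and none lower, beside 20.1% and 19.5% (39.6% in all). Over the whole interval, 90-96hpi against MII, 6 were higher and 1 lower, beside 42.6% and 38.4% of all genes (81% in all). In window order from 0-6hpi, the median log2 change of the 8 genes was 0.27, 0.19, 0.04, 0.85, 0.51, −0.35, 0.67, −0.83 and 0.68. For all genes it was 0.03, 0.06, 0.12, 0, −0.12, −0.22, −0.19, 0 and 0.07. From 24-30hpi on, a call was common for genes of any kind.

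**Figure D1:**
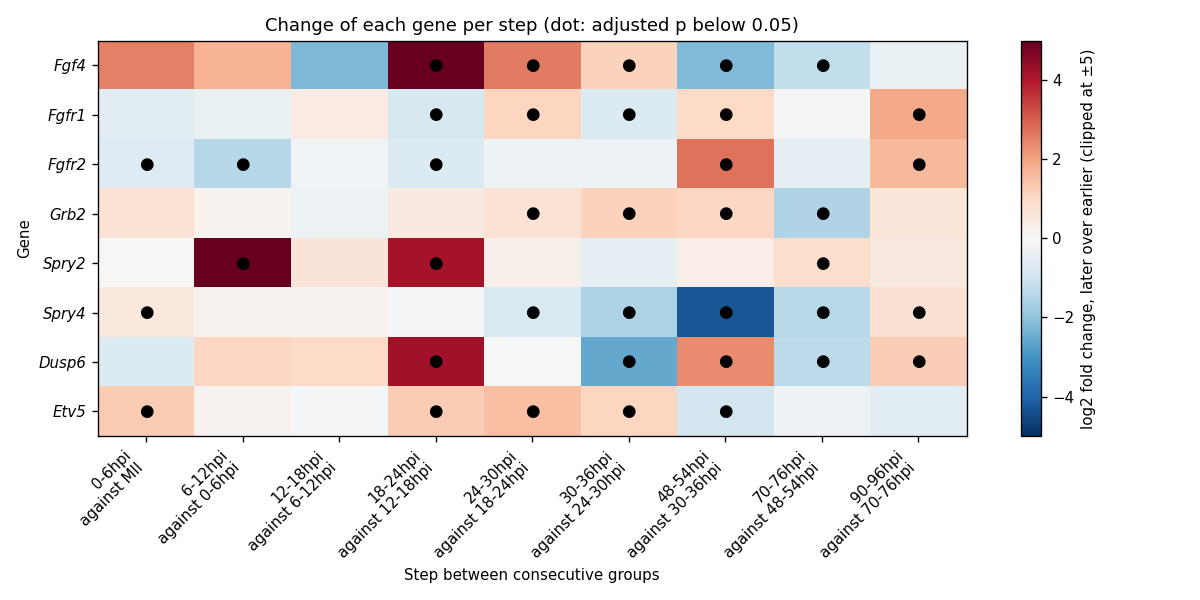
Log2 fold change of the 8 tested FGF pathway genes (rows) in each window against the one before it (columns), as coloured cells clipped at 5, with a dot where the adjusted p was below 0.05. Fgf4 and Dusp6 show their strongest colours at 18-24hpi and Spry2 at 6-12hpi and 18-24hpi, Spry4 is blue at 30-36hpi and 48-54hpi, and folds against groups with 3 reads or fewer depend on the prior count of the fit.

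**Figure D2:**
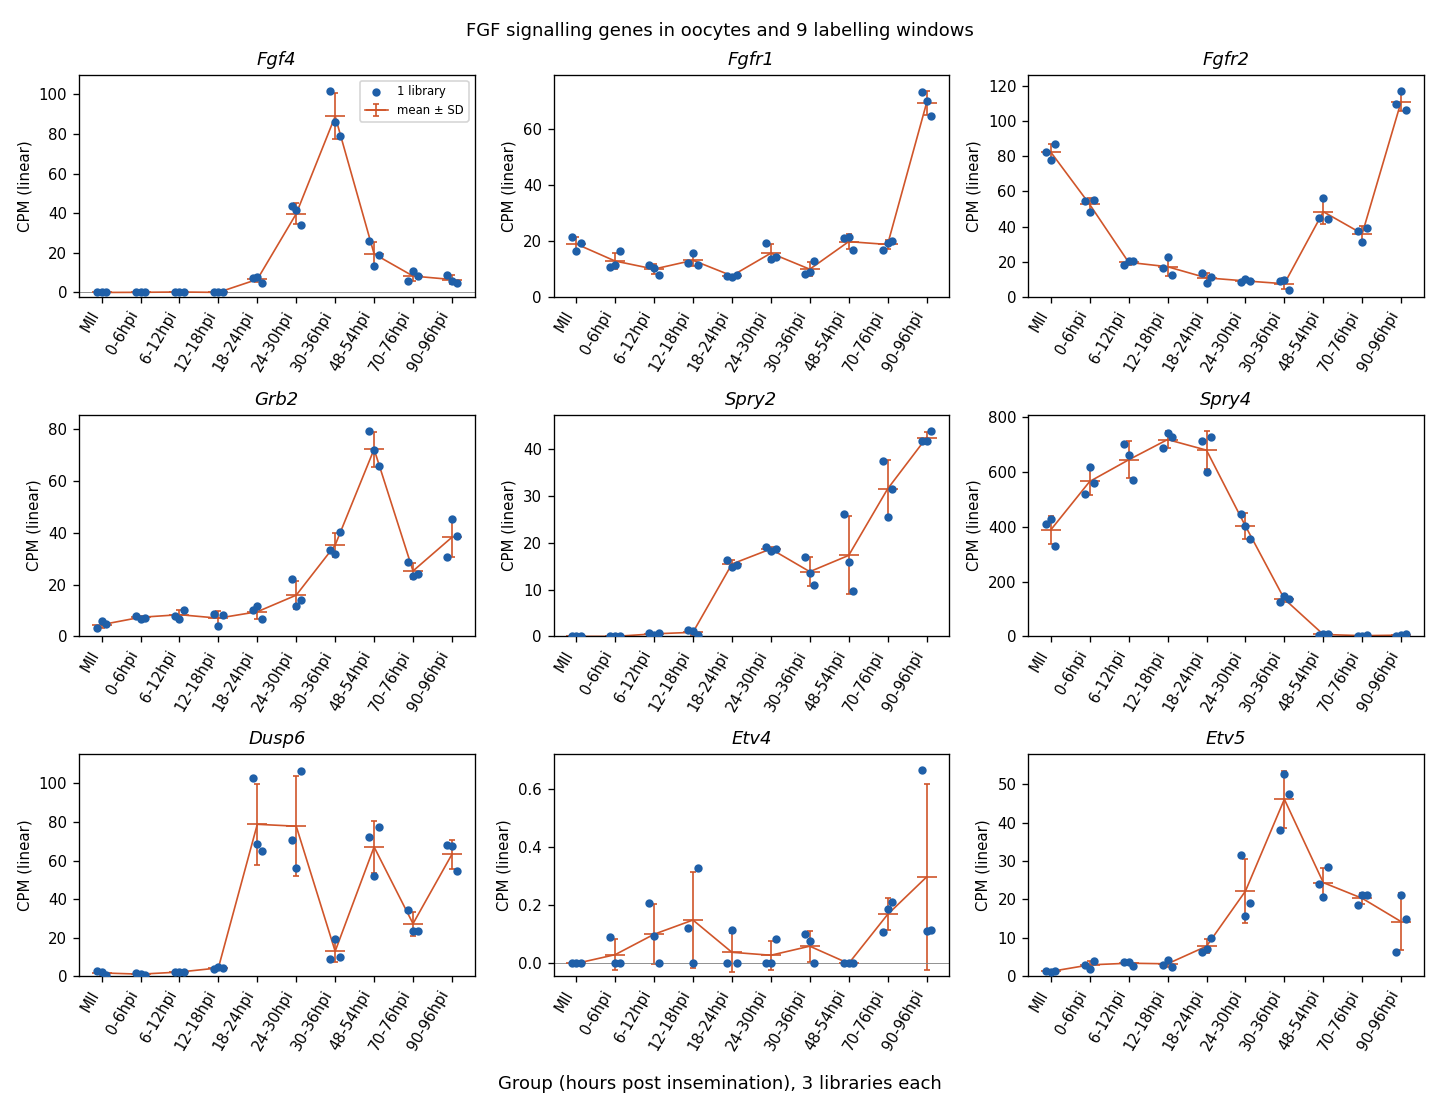
CPM of each of the 9 genes (panels) over MII and the 9 labelling windows, with a point per library and the mean ± SD (n = 3). Spry4 holds 389 to 719 CPM on average up to 18-24hpi and is below 10 from 48-54hpi on, Fgf4 and Etv5 peak at 30-36hpi, and Fgfr1, Fgfr2 and Spry2 are highest at 90-96hpi.

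Fgf4, the ligand, had no reads in MII oocytes and appeared at 18-24hpi. It had 0 reads in all MII libraries and at most 0.378 CPM in any library up to 12-18hpi. The levels were 7.34, 7.61 and 4.88 CPM at 18-24hpi, 43.9, 41.6 and 33.8 CPM at 24-30hpi, and 102, 86.1 and 79.0 CPM at 30-36hpi. No library of these windows overlapped a library of the window before. The 18-24hpi libraries held 167 Fgf4 reads in total, against 1 read in the 12-18hpi libraries, a ratio of 172 with an exact 95% interval of 30.4 to 6829 for counting error alone (adjusted p = 4.24e-10). Fgf4 then rose by a log2 fold change of 2.58 (SE 0.32, adjusted p = 5.19e-08) at 24-30hpi against 18-24hpi and by 1.16 (SE 0.29, adjusted p = 0.00130) at 30-36hpi against 24-30hpi. After that peak the level was 25.8, 13.5 and 19.1 CPM at 48-54hpi, 5.66, 10.8 and 8.37 CPM at 70-76hpi, and 8.86, 5.71 and 5.01 CPM at 90-96hpi. The 48-54hpi libraries all lay under the 30-36hpi libraries, and those at 70-76hpi and 90-96hpi overlapped. Fgf4 fell by 2.19 (SE 0.30, adjusted p = 1.61e-07) at 48-54hpi and by 1.23 (SE 0.31, adjusted p = 0.00153) at 70-76hpi, each against the window before. At 90-96hpi it was still at least 60.1-fold above MII oocytes, taking 3 reads over the MII group as the floor. In order of level, 30-36hpi, 24-30hpi and 48-54hpi stood apart from each other and from all lower windows, whereas 70-76hpi, 18-24hpi and 90-96hpi overlapped.

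Fgfr2, a receptor known from the trophectoderm and primitive endoderm, was the more abundant of the receptor pair in MII oocytes. The libraries measured 82.4, 77.8 and 87.2 CPM for MII, 54.5, 48.3 and 54.9 CPM for 0-6hpi, and 18.1, 20.4 and 20.2 CPM at 6-12hpi. These 3 groups did not overlap. Fgfr2 fell by 0.65 (SE 0.22, adjusted p = 0.0284) at 0-6hpi against MII and by 1.43 (SE 0.23, adjusted p = 2.59e-05) at 6-12hpi against 0-6hpi. The first of these calls did not hold with scaling by total count (−0.49, adjusted p = 0.121), nor with MII replicate 1, MII replicate 3 or any 0-6hpi replicate left out (−0.60 to −0.71). The level stayed low from 12-18hpi to 30-36hpi, where it averaged 17.0 ± 5.16, 10.7 ± 2.79, 8.94 ± 0.865 and 7.34 ± 3.04 CPM in window order (SD, n = 3 each). Each of those windows overlapped the next in level, and the fall by 0.67 at 18-24hpi against 12-18hpi (SE 0.24, adjusted p = 0.0289) was lost in 7 alternatives, among them the leaving out of 12-18hpi replicate 1 (−0.65), 12-18hpi replicate 2 (−0.37), 18-24hpi replicate 2 (−0.45) or 18-24hpi replicate 3 (−0.63). At 48-54hpi it measured 44.6, 56.3 and 44.4 CPM, against 8.66, 9.51 and 3.87 CPM at 30-36hpi. All libraries at 48-54hpi were higher, a rise of 2.71 (SE 0.24, adjusted p = 6.60e-12). At 90-96hpi it measured 110.0, 117 and 107 CPM, against 37.7, 31.0 and 38.9 CPM at 70-76hpi, again without overlap (1.63, SE 0.22, adjusted p = 2.36e-07). Summed trophectoderm markers, 5652 to 9116 CPM at 90-96hpi, were also highest in that window, and their part in the Fgfr2 level was not tested. The final level differed from that of MII oocytes by 0.43 (SE 0.22, adjusted p = 0.0635), which was not called, but by 0.96 (adjusted p = 0.000205) under total count scaling. It also passed without MII replicate 1 (0.54, adjusted p = 0.0482) or MII replicate 3 (0.57, adjusted p = 0.0375).

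Fgfr1, the receptor known to act in epiblast as well as primitive endoderm, changed less until the last window. Its window means ranged between 7.41 and 19.6 CPM through 70-76hpi. The libraries measured 72.9, 69.8 and 64.6 CPM at 90-96hpi, against 16.7, 19.1 and 20.0 CPM at 70-76hpi. Only 90-96hpi stood apart at the top of the order of its levels, and the rise was 1.89 (SE 0.24, adjusted p = 4.54e-08). Smaller calls alternated in direction: it fell by 0.80 at 18-24hpi (SE 0.25, adjusted p = 0.0111), rose by 1.06 at 24-30hpi (SE 0.25, adjusted p = 0.000566), fell by 0.67 at 30-36hpi (SE 0.24, adjusted p = 0.0199) and rose by 1.01 at 48-54hpi (SE 0.24, adjusted p = 0.000437). The difference of −0.57 at 0-6hpi against MII was not called (adjusted p = 0.0876) but passed without 0-6hpi replicate 3 (−0.79, adjusted p = 0.0381). The falls were the less stable calls. The first was lost without 12-18hpi replicate 2 (−0.61) or 18-24hpi replicate 2 (−0.75), and the second without 24-30hpi replicate 1 (−0.31), 30-36hpi replicate 1 (−0.55) or 30-36hpi replicate 2 (−0.59).

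Taken per kilobase of gene length, the balance between the receptors changed side. The ratio of Fgfr1 to Fgfr2 levels per kilobase was 0.183 to 0.225 in MII oocytes, 1.19 to 2.10 at 24-30hpi and 0.807 to 2.85 at 30-36hpi. In later windows it was 0.329 to 0.410 at 48-54hpi, 0.388 to 0.543 at 70-76hpi and 0.523 to 0.582 at 90-96hpi. Thus Fgfr2 led in every library of MII oocytes, 48-54hpi and 90-96hpi, and Fgfr1 led in every library of 24-30hpi. The per-kilobase ratio of Fgf4 to Fgfr2 peaked in the same interval, at 0.641 to 1.44 in 18-24hpi, 13.2 to 29.9 in 30-36hpi and 0.0686 to 0.118 in 90-96hpi. The ratio was lower still before Fgf4 appeared, at 0.00835 to 0.0271 in 6-12hpi, and Fgf4 had no reads in MII oocytes. It was highest in the window in which Fgfr2 was at its lowest mean level.

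**Figure D3:**
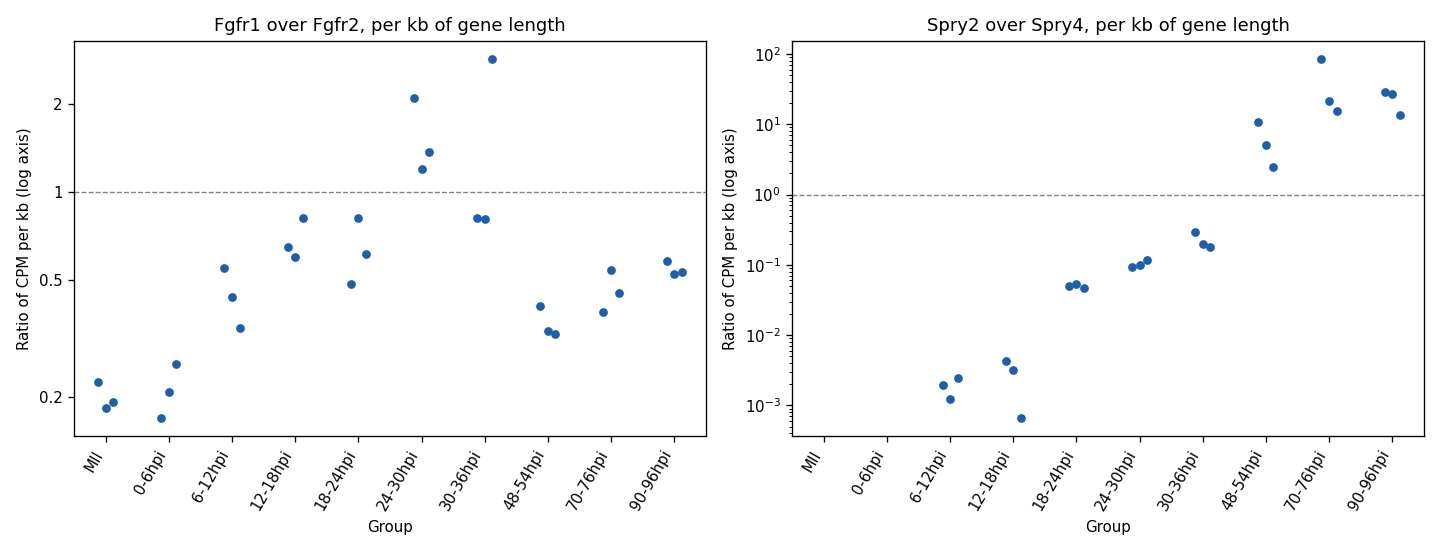
Ratios of levels per kilobase, Fgfr1 over Fgfr2 and Spry2 over Spry4, in each library of each window on a log axis, with no point where Spry2 had 0 reads. Fgfr1 over Fgfr2 is above 1 in every library at 24-30hpi, at 0.817, 0.807 and 2.85 at 30-36hpi and at 0.329 to 0.410 at 48-54hpi. Spry2 over Spry4 passes 1 at 48-54hpi.

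Grb2, the adaptor that links activated receptors to the RAS exchange factor SOS, rose over the middle windows. Its mean was 4.52 ± 1.38 CPM in the MII group and stayed between 7.05 and 9.52 CPM up to 18-24hpi. It measured 22.2, 11.6 and 14.0 CPM at 24-30hpi, 33.4, 31.9 and 40.4 CPM at 30-36hpi, and 79.3, 71.8 and 65.7 CPM at 48-54hpi. The 48-54hpi libraries were above those of every other window. Grb2 rose by 0.74 at 24-30hpi (SE 0.28, adjusted p = 0.0291), by 1.14 at 30-36hpi (SE 0.27, adjusted p = 0.000561) and by 1.04 at 48-54hpi (SE 0.26, adjusted p = 0.000869), each against the window before. It then fell by 1.52 at 70-76hpi (SE 0.27, adjusted p = 1.49e-05), to 28.6, 23.2 and 23.9 CPM. At 90-96hpi it averaged 38.3 ± 7.47 CPM, a difference of 0.60 from 70-76hpi that was not called (adjusted p = 0.0696) but passed without 90-96hpi replicate 1 (0.78, adjusted p = 0.0299). The 24-30hpi libraries overlapped those of 18-24hpi, and that call was lost without 18-24hpi replicate 3 (0.72) or 24-30hpi replicate 1 (0.64). With scaling by total count, the 48-54hpi rise was 0.56 and no longer called (adjusted p = 0.0679).

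The Sprouty pair exchanged places. Spry4, which encodes an inhibitor of receptor signalling to ERK, was an abundant maternal transcript. It measured 411, 427 and 329 CPM in the MII libraries. Its mean was 566 ± 49.2, 645 ± 67.6, 719 ± 29.4 and 680.0 ± 69.9 CPM from 0-6hpi to 18-24hpi (SD, n = 3 each). Those 4 windows overlapped in order of level, and the rise of 0.54 at 0-6hpi against MII (SE 0.19, adjusted p = 0.0357) was lost when any single library of either group was left out (0.42 to 0.61). Spry4 then measured 449, 404 and 356 CPM at 24-30hpi, 127, 148 and 135 CPM at 30-36hpi, and 5.34, 6.98 and 8.71 CPM at 48-54hpi. Each of these groups lay wholly under the one before. The decreases were −0.75 (SE 0.19, adjusted p = 0.00132), −1.56 (SE 0.19, adjusted p = 4.61e-08) and −4.29 (SE 0.23, adjusted p = 1.66e-16) in window order. The first was lost under total count scaling (−0.34) and without 18-24hpi replicate 1 (−0.49) or 18-24hpi replicate 3 (−0.53). At 70-76hpi it measured 0.962, 2.61 and 4.45 CPM, a further fall by 1.37 (SE 0.29, adjusted p = 0.000237), and its highest window mean was 269 times its lowest. From 30-36hpi to 70-76hpi, summed oocyte markers took a like course, 1084 to 1215 CPM at 30-36hpi, 161 to 181 CPM at 48-54hpi and 50.9 to 87.1 CPM at 70-76hpi. Earlier the courses differed: the oocyte sum was 9928 to 10136 CPM in MII and 6727 to 7173 CPM at 12-18hpi, where Spry4 was highest. The call of a small rise at 90-96hpi (0.77, SE 0.31, adjusted p = 0.0481) rested on libraries that overlapped, and was lost without 70-76hpi replicate 1 (0.35), 70-76hpi replicate 2 (0.76) or 90-96hpi replicate 3 (0.32).

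Spry2, the other Sprouty gene, had 0 reads in all MII and 0-6hpi libraries. It held 0.619, 0.378 and 0.631 CPM at 6-12hpi, a total of 16 reads against 0 reads at 0-6hpi, or at least 5.86-fold higher with 3 reads over the group as the floor (adjusted p = 0.00315). The main onset came at 18-24hpi, with 16.3, 14.8 and 15.3 CPM, against 1.32, 1.07 and 0.218 CPM at 12-18hpi. All 18-24hpi libraries were above all earlier ones, a rise of 4.15 (SE 0.42, adjusted p = 1.58e-09). It then measured 26.2, 15.9 and 9.71 CPM at 48-54hpi, 37.5, 25.4 and 31.6 CPM at 70-76hpi, and 41.7, 41.8 and 43.8 CPM at 90-96hpi. The 70-76hpi rise of 0.86 (SE 0.31, adjusted p = 0.0253) came from overlapping libraries and was lost without 48-54hpi replicate 2 (0.80), 48-54hpi replicate 3 (0.61), 70-76hpi replicate 1 (0.78) or 70-76hpi replicate 3 (0.86). In levels per kilobase, the ratio of Spry2 to Spry4 was 0.0462 to 0.0541 at 18-24hpi, 0.179 to 0.295 at 30-36hpi, 2.45 to 10.8 at 48-54hpi and 13.7 to 28.5 at 90-96hpi. Spry4 was the main Sprouty of the pair in every library through 30-36hpi, and Spry2 in every library from 48-54hpi on.

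Dusp6, which encodes a cytoplasmic phosphatase specific for ERK, rose and fell in turn. It measured at most 5.01 CPM in any library up to 12-18hpi. At 18-24hpi it measured 103, 68.6 and 64.8 CPM, against 3.49, 5.01 and 4.36 CPM at 12-18hpi, a rise of 4.20 (SE 0.34, adjusted p = 3.86e-12). Every 18-24hpi library stood above every earlier one. The level was 70.8, 56.1 and 107 CPM at 24-30hpi, 9.16, 19.5 and 10.1 CPM at 30-36hpi, and 72.2, 51.7 and 77.2 CPM at 48-54hpi. The 30-36hpi libraries formed a trough that overlapped neither neighbour, with a fall by 2.58 (SE 0.30, adjusted p = 9.26e-09) into it and a rise of 2.36 (SE 0.30, adjusted p = 2.02e-08) out of it. At 70-76hpi it measured 34.5, 23.7 and 23.5 CPM, all under the 48-54hpi libraries (fall by 1.30, SE 0.29, adjusted p = 0.000343). At 90-96hpi it measured 67.8, 67.3 and 54.6 CPM, all above the 70-76hpi libraries (rise of 1.22, SE 0.29, adjusted p = 0.000833). Fgf4 was at its highest in the window of the Dusp6 trough. The DESeq2 alternative also called the smaller difference at 12-18hpi against 6-12hpi (1.02, adjusted p = 0.0371), which edgeR placed at 0.99 (SE 0.39, adjusted p = 0.0930).

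Etv5, an ETS factor of the PEA3 group, followed Fgf4. Its window means lay between 1.23 and 3.38 CPM up to 12-18hpi. It measured 6.39, 7.15 and 9.88 CPM at 18-24hpi, 31.7, 15.7 and 19.2 CPM at 24-30hpi, and 38.2, 52.8 and 47.3 CPM at 30-36hpi. No library of these 3 windows overlapped a neighbouring window. The rises were 1.27 (SE 0.36, adjusted p = 0.00610), 1.51 (SE 0.33, adjusted p = 0.000315) and 1.06 (SE 0.31, adjusted p = 0.00541) in window order, each against the window before. At 48-54hpi it measured 24.1, 20.6 and 28.5 CPM, a fall by 0.92 (SE 0.31, adjusted p = 0.0112). It averaged 14.2 ± 7.41 CPM at 90-96hpi, where replicate 1 was the low library at 6.43 CPM, and 20.3 ± 1.47 CPM at 70-76hpi. That difference was not called, but passed without 90-96hpi replicate 2 (−0.92, adjusted p = 0.0419). The early call of 1.26 at 0-6hpi against MII (SE 0.42, adjusted p = 0.0282) was lost in 6 alternatives, among them the leaving out of any MII replicate (1.12 to 1.35), 0-6hpi replicate 1 (1.23) or 0-6hpi replicate 3 (0.97). Etv4, its close relative, was close to absent. Among the window libraries it had at most 6 reads in any 1, 0 reads in the MII and 48-54hpi groups, and a highest group mean of 0.297 CPM at 90-96hpi, so differences between windows were not detectable at this depth.

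Over the 10 group means, the closest pairs among the 8 genes were Fgf4 with Etv5 (Pearson r = 0.958 of log2 of the mean CPM plus 1) and Spry2 with Dusp6 (r = 0.925). Fgfr1 and Fgfr2 gave r = 0.741, and Grb2 and Spry4 gave the lowest value, −0.807. These coefficients describe 10 points that share libraries and scaling between the genes. Among 9041 other genes, those most like Fgf4 were Khdrbs1 (r = 0.995) and Cdc25c (r = 0.991), and those most like Etv5 were Tymp and Sco2 (r = 0.992 each). Spry4 was most like Nlrp9c (r = 0.998) and Ighg2b (r = 0.997), and Spry2 most like Skil (r = 0.993) and Zbtb8os (r = 0.991). Dusp6 was most like Hes1 (r = 0.965) and Cox11 (r = 0.958), Grb2 most like Tnip1 (r = 0.979) and Tomm22 (r = 0.977), Fgfr2 most like Blvra (r = 0.962) and Efna2 (r = 0.948), and Fgfr1 most like Ewsr1 (r = 0.944) and Tmem245 (r = 0.937).

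In the wider pathway, taken as 102 further genes of which 89 were tested, more ligand and feedback genes fell than rose at 48-54hpi against 30-36hpi. At that step 15 of the 89 rose and 41 fell, beside 28.7% and 33.3% of all tested genes, and at 90-96hpi against 70-76hpi 27 rose and 15 fell, beside 20.1% and 19.5% of all genes. Of 12 tested FGF ligands other than Fgf4, 2 rose and 7 fell at 48-54hpi, with a median log2 change of −1.83 beside −0.19 for all genes. In the later steps 2 rose and 2 fell at 70-76hpi and 1 rose and 1 fell at 90-96hpi, and 8 of the 21 ligands listed stayed under 1 CPM in every window. Fgf1, like Fgf4, was called higher at 18-24hpi, averaging 39.6 ± 10.3 CPM there and 4.22 ± 3.38 CPM at 12-18hpi (3.23, adjusted p = 1.06e-06). Unlike Fgf4, it already had 109 reads at 12-18hpi and was highest at 18-24hpi. Of 14 tested feedback inhibitors other than the members, none rose and 9 fell at 48-54hpi, with Dusp7, another ERK phosphatase, at 5.78 ± 1.90 CPM in 48-54hpi and 100.3 ± 3.73 CPM in 30-36hpi (−4.10, adjusted p = 1.56e-15). At 90-96hpi against 70-76hpi, 10 of the 14 rose and 3 fell, with a median of 1.34 beside 0.07 for all genes. Surface heparan sulfate proteoglycans, which hold FGFs at the receptor, did not move as 1 group. Gpc4 averaged 78.6 ± 10.6 CPM at 48-54hpi and 4.11 ± 0.562 CPM at 30-36hpi (4.26), and Sdc4 averaged 452 ± 24.8 CPM at 70-76hpi and 25.6 ± 4.83 CPM at 48-54hpi (4.15). Sdc1 was highest in MII oocytes and averaged 7.40 ± 3.46 CPM at 90-96hpi and 33.3 ± 4.57 CPM at 70-76hpi (−2.17, adjusted p = 1.02e-08). Within the RAS-ERK cascade, 6 of 23 genes rose and 10 fell at 30-36hpi against 24-30hpi, beside 21% and 29% of all genes, among the genes that fell Mapk3 (ERK1, −2.27) and Map2k1 (MEK1, −1.44).

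The genotype libraries asked whether loss of Klf17 changed embryonic transcription. Klf17 itself measured 673, 603 and 728 CPM in the libraries labelled KO, 359, 845 and 794 CPM in mKO and 812 and 1015 CPM in pKO, against 596, 805 and 746 CPM in ctrl. The libraries labelled KO lay within the range of ctrl (−0.10, SE 0.30, adjusted p = 0.869), so the Klf17 total did not mark the labels. Gene totals do not show whether the reads lie in a deleted stretch, which was not tested. Libraries labelled KO and ctrl differed in other measures too. The share of reads from mitochondrially encoded genes was 5.92 to 11.4% in libraries labelled KO and 3.23 to 4.18% in ctrl, and mean depth was 14.8 ± 0.777 M reads in libraries labelled KO and 18.8 ± 1.01 M reads in ctrl. Oocyte markers summed to 3552 to 4064 CPM in libraries labelled KO and 1922 to 2720 CPM in ctrl, with all 8 having reads in both groups. Cumulus cell markers summed to 21.2 to 43.1 CPM in libraries labelled KO and 66.2 to 83.9 CPM in ctrl (10 and 9 of 11 with reads, Fshr at 0 in both). Primitive endoderm markers summed to 220.0 to 243 CPM in libraries labelled KO and 168 to 207 CPM in ctrl (8 of 8 with reads). In the window libraries, primitive endoderm markers summed to 337 to 438 CPM in MII oocytes and cumulus cell markers to 31.1 to 38.0 CPM at 30-36hpi. Neither sum thus marks those cell types alone. The 2-cell markers summed to 1136 to 1190 CPM in libraries labelled KO and 749 to 1110 CPM in ctrl. Epiblast, trophectoderm and sperm marker sums overlapped between the groups. The Fgfr2 and Grb2 calls given next held with the mitochondrially encoded genes left out, and the part of these markers in the results was not tested.

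In the libraries labelled KO, Fgfr2 was higher and Grb2 lower than in ctrl, beside 1.82% of all tested genes called higher and 6.31% called lower (8.13% in all, 304 and 1054 genes). Fgfr2 measured 22.7, 42.4 and 25.9 CPM in libraries labelled KO, against 10.4, 11.1 and 11.2 CPM in ctrl. The groups did not overlap, with replicate 2 the highest library labelled KO, and the difference was 1.47 (SE 0.37, adjusted p = 0.0251). Grb2 measured 16.7, 16.1 and 20.5 CPM in libraries labelled KO, against 34.6, 40.4 and 41.3 CPM in ctrl, again without overlap (−1.13, SE 0.32, adjusted p = 0.0390). Both calls were fragile: that of Grb2 was lost when any 1 of the 6 libraries was left out (−1.03 to −1.20, adjusted p 0.0613 to 0.143), and that of Fgfr2 without KO replicate 2 (1.18, adjusted p = 0.120) or any ctrl replicate (1.44 to 1.49). The Grb2 call was also lost with DESeq2 size factors (adjusted p = 0.0534), total count scaling (0.0519) or no low-count filter (0.0554). Without 1 library, edgeR called 0 to 892 of all genes. The 0 was without KO replicate 2, where 3235 genes had an unadjusted p below 0.05 and DESeq2, run on that subset after the data were seen, called 1277.

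The other 6 tested genes did not pass the threshold. Fgf4 measured 24.4, 53.1 and 58.5 CPM in libraries labelled KO, against 132, 120.3 and 109 CPM in ctrl (−1.41, SE 0.46, adjusted p = 0.0664). Every library labelled KO was under every ctrl library, and DESeq2 put the adjusted p at 0.0357 (−1.32). Dusp6 measured 59.7, 82.1 and 72.6 CPM in libraries labelled KO, against 36.8, 33.0 and 50.3 CPM in ctrl (0.84, SE 0.30, adjusted p = 0.0920, and 0.0239 by DESeq2). Spry2 measured 29.0, 48.2 and 40.7 CPM in libraries labelled KO, against 9.63, 10.9 and 25.1 CPM in ctrl (1.37, SE 0.62, adjusted p = 0.171). Both were higher in every library labelled KO than in any ctrl library. Spry4 measured 809, 698 and 772 CPM in libraries labelled KO, against 525, 592 and 645 CPM in ctrl, also without overlap (0.37, SE 0.23, adjusted p = 0.333). The share of all genes without overlap between libraries labelled KO and ctrl was not counted. By edgeR, 4295 of the 16694 tested genes had an unadjusted p below 0.05 in this comparison. Without a low-count filter, edgeR called Fgf4 and Spry2 (adjusted p = 0.00174 and 0.0113). Fitted on the compared groups alone, it called Fgf4, Spry2 and Dusp6 (adjusted p = 0.00690, 0.0230 and 0.0321). None of these genes was called under total count scaling or with any single library left out. Etv5 (−0.59, SE 0.35, adjusted p = 0.297) and Fgfr1 (0.43, SE 0.43, adjusted p = 0.573) overlapped between the groups, and Fgfr1 ranged between 8.40 and 34.4 CPM within the libraries labelled KO. Etv4 had 15 reads in libraries labelled KO, 14 of them in replicate 3, against 2 reads in ctrl. The per-kilobase ratio of Fgf4 to Fgfr2 was 1.57 to 3.30 in libraries labelled KO and 14.2 to 18.4 in ctrl.

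**Figure D4:**
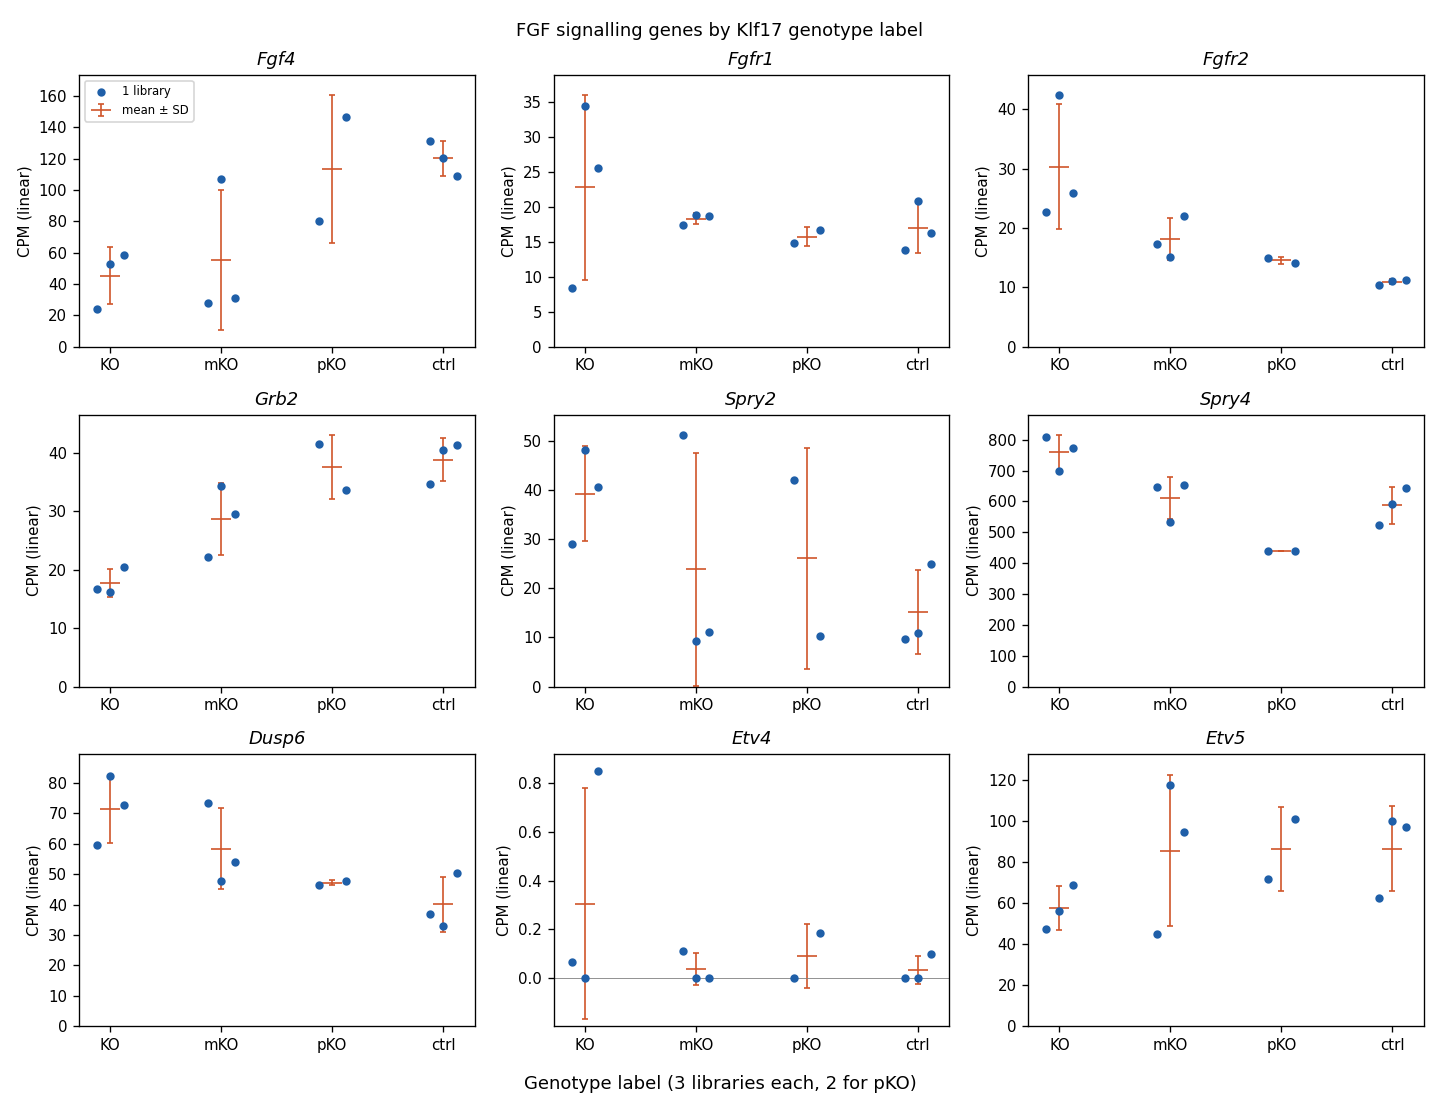
CPM of each of the 9 genes (panels) in libraries labelled KO, mKO, pKO and ctrl, with a point per library and the mean ± SD (n = 3, and 2 for pKO). Fgfr2, Spry2, Spry4 and Dusp6 are higher and Fgf4 and Grb2 lower in every library labelled KO than in any ctrl library, of which Fgfr2 and Grb2 passed the test. How many of all genes separated in this way was not counted.

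The libraries labelled mKO and pKO gave no called gene against ctrl by edgeR. It called 0% of all tested genes in mKO against ctrl and 0% in pKO against ctrl, with 1243 and 476 genes at an unadjusted p below 0.05, and DESeq2 called 32 and 2 genes. Fgf4 measured 28.1, 107 and 31.2 CPM in mKO and 80.1 and 147 CPM in pKO, against 132, 120.3 and 109 CPM in ctrl. The mKO libraries lay under ctrl with replicate 2 close to it, and pKO overlapped ctrl. The mKO difference was −1.12 with a 95% interval of −2.01 to −0.22 (adjusted p = 0.645), and without mKO replicate 2 it was −2.02 (adjusted p = 0.0283). Fgfr2 measured 17.4, 15.1 and 22.1 CPM in mKO and 15.0 and 14.1 CPM in pKO, all above ctrl, with an mKO difference of 0.74 (adjusted p = 0.675). Its group means ran 30.3 ± 10.6 CPM in libraries labelled KO, 18.2 ± 3.53 CPM in mKO, 14.5 ± 0.624 CPM in pKO and 10.9 ± 0.429 CPM in ctrl. In the main edgeR fit, Fgfr2 was called only in libraries labelled KO against ctrl. It was not called in pKO against ctrl (0.41), nor in libraries labelled KO against mKO (0.74, adjusted p = 0.388) or against pKO (1.06, adjusted p = 0.0997). Grb2 measured 22.1, 34.2 and 29.5 CPM in mKO and 41.4 and 33.6 CPM in pKO. Spry2 differed widely within genotypes, with 51.3, 9.26 and 11.03 CPM in mKO and 42.0 and 10.2 CPM in pKO. Replicate 1 of mKO, the library with 51.3 CPM of Spry2, correlated with the libraries labelled KO at 0.943 to 0.954 and with the other mKO libraries at 0.913 and 0.940. Libraries labelled KO against mKO gave 0 calls by edgeR (0% of all genes, 2220 at an unadjusted p below 0.05) and 298 by DESeq2. Spry2 passed without mKO replicate 1 (1.93, adjusted p = 0.0473). Against pKO, 2.83% of all genes were called higher and 9.67% lower (12.5% in all), and Grb2 alone among the members was called (−1.08, SE 0.35, adjusted p = 0.0496), a call that was lost in 10 alternatives, with values between −0.93 and −1.23 without 1 library. Since the comparisons against ctrl share its libraries, their values for a gene are not independent.

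Set beside the window series, the signs of the KO differences ran against the step at 30-36hpi (30-36hpi against 24-30hpi). In that step Fgf4, Grb2 and Etv5 rose, and they had −1.41, −1.13 and −0.59 in libraries labelled KO against ctrl. Dusp6 and Spry4 fell in that step and had 0.84 and 0.37. All 8 tested genes had opposite signs in the 2 comparisons, but so did 74.1% of the 15388 genes tested in both tables and 95.5% of the 1347 genes of that set called in libraries labelled KO against ctrl. At the step before, 24-30hpi against 18-24hpi, 6 of the 8 members had the opposite sign, beside 66.6% of those genes. The opposite sign at 30-36hpi is thus shared with most called genes, the step was chosen after the values were seen, and the tables were scaled separately.

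**Figure D5:**
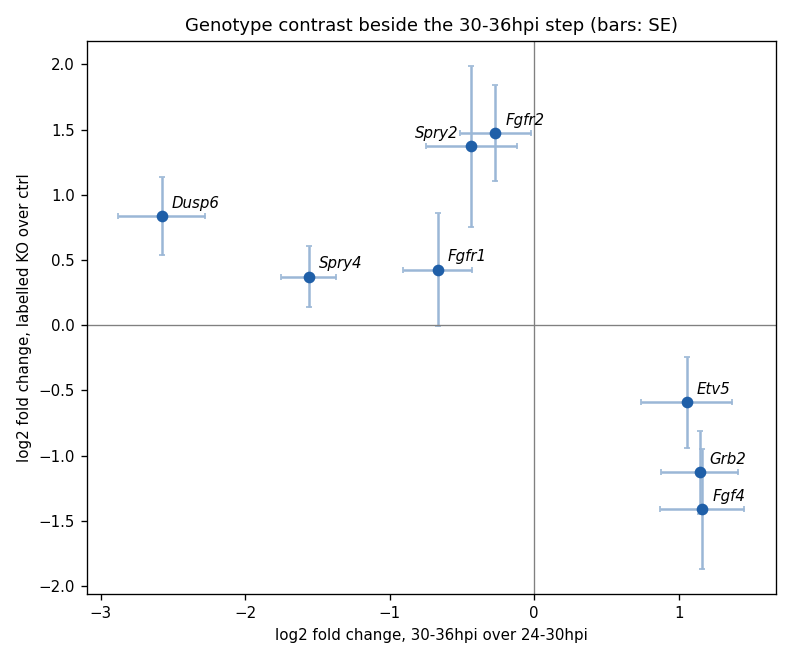
Log2 fold change of the 8 tested genes in libraries labelled KO against ctrl (vertical axis) and in 30-36hpi against 24-30hpi (horizontal axis), with bars of 1 SE. Fgf4, Grb2 and Etv5 lie at lower right and the other 5 at upper left, so each gene has opposite signs on the axes.

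Of the 92 other pathway genes tested in the genotypes, 3 rose and 3 fell in libraries labelled KO against ctrl, beside 1.82% and 6.31% of all tested genes and with a median of 0.39 beside 0.05 for all genes. Myc, an early target of growth factor signalling, averaged 4.97 ± 1.52 CPM in libraries labelled KO and 33.6 ± 2.28 CPM in ctrl (−2.76, SE 0.61, adjusted p = 0.0149). Gab1, a docking protein that works with GRB2, averaged 14.4 ± 9.10 CPM in libraries labelled KO and 53.0 ± 10.5 CPM in ctrl (−1.88, SE 0.48, adjusted p = 0.0270). Sdc4 averaged 19.7 ± 9.64 CPM in libraries labelled KO and 4.22 ± 0.381 CPM in ctrl (2.22, SE 0.53, adjusted p = 0.0204), and Sulf2, which removes sulfate groups from heparan sulfate, averaged 60.5 ± 13.0 CPM in libraries labelled KO and 23.1 ± 2.73 CPM in ctrl (1.39, SE 0.34, adjusted p = 0.0237). Without KO replicate 2, edgeR called 0 of all genes in this comparison, so none of these calls held there.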

How the data were processed

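Read counts per gene were analysed for 30 window libraries and 11 genotype libraries, and of the 61 samples the 14 of chromatin accessibility and the 6 of an embryo-number test were not used here. The authors deposited counts that are whole numbers, per the file headers one column per library. One damaged record (Nyx), which holds a fraction, was left out, and its column, 90-96hpi replicate 3, was rounded like expected counts, although the authors deposited its other values whole. The submitters' processing notes name Trim Galore 0.6.10, STAR 2.7.10a, SAMtools 1.12, Bowtie2 2.4.2, Picard 2.20.4 and deepTools 3.5.4, with mm10. The counting tool, the strand counted and any parting of reads by T-to-C conversion are not given in the sources used here, so reads of overlapping or antisense genes cannot be told apart. Gene lengths are those in the files.

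Groups and replicates were taken from sample titles. Each table was fitted whole with edgeR 4.0.16, run in R 4.3.3 (low counts removed by filterByExpr at its settings of 10 per library and 15 in total; TMM scaling; robust quasi-likelihood F-test, 1 coefficient per group), which left 16234 window genes and 16694 genotype genes, with Benjamini-Hochberg adjustment over all of them and a threshold of 0.05. An SE is the log2 fold change divided by the square root of F, and intervals on fold changes use 1.96 SE. Groups with 3 reads or fewer were given as a bound against 3 reads or as an exact ratio. Exact intervals and floors cover counting error only, since reads have no molecular identifiers. Alternatives were DESeq2 1.42.0, its size factors, total count scaling, no filter, a replicate block, a fit of the compared groups alone, omission of mitochondrially encoded genes, and omission of each library. Likeness of profiles was Pearson's r of log2(mean CPM + 1) over genes with at least 20 CPM in their highest window, and the 2 most alike were named. Of the pathway lists, up to 2 called genes per direction with the smallest adjusted p could be named in each comparison. The members and lists were chosen with earlier results of these data known, and the motifs after the data were seen. The fit was tested on counts simulated with the same dispersion for every gene and changes in well-counted genes only. That setting does not show how the fit performs at the spread of these libraries. Figures were drawn with Python 3.11.15 and matplotlib 3.10.9.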

Additional observations from a re-analysis of the deposited data

How the results depend on the processing

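Of 120 member results, 48 were called, 34 of them under every alternative and 14 not, no called value reversed, and 14 uncalled results were called under some alternative. Fitting the compared groups alone called 3577 genes and 1 member at 6-12hpi, where Spry2 was not tested, and 3628 genes at 12-18hpi. Members called at 12-18hpi numbered 1 without a filter and 1 by DESeq2. In libraries labelled KO against ctrl, 2237 genes were called without a filter, 2473 by DESeq2 and 3166 from the compared groups alone. Members called there numbered 1 with DESeq2's size factors, 1 under scaling by total count, 4 by DESeq2 and 5 from the compared groups alone. Without a filter and by DESeq2 the calls were 47 and 32 in mKO against ctrl, 4 and 2 in pKO against ctrl, and 543 and 298 in libraries labelled KO against mKO. In libraries labelled KO against pKO, DESeq2 called 3412 genes and 3 members, and 0 members were called by edgeR without the mitochondrially encoded genes. Without 1 library at a time, calls ran from 739 to 871 genes at 6-12hpi, 1201 to 1779 at 12-18hpi, 0 to 892 in libraries labelled KO against ctrl, 0 to 110 in mKO against ctrl, 0 to 1044 in libraries labelled KO against mKO and 500 to 1180 against pKO. Members called ran from 0 to 1 at 0-6hpi, 3 to 5 at 24-30hpi, 0 to 1 in libraries labelled KO against ctrl, 0 to 1 in mKO against ctrl, 0 to 1 in libraries labelled KO against mKO and stayed at 0 against pKO. The share of higher calls was 46.3% at 24-30hpi and 69.0% under total count scaling, 46.2% and 32.5% at 48-54hpi, 49.8% and 61.7% at 70-76hpi, 53.8% and 43.5% at 12-18hpi, and 60.9% and 78.3% at 0-6hpi (49.4% with DESeq2 size factors). In libraries labelled KO it was 22.4% against ctrl (40.6% by DESeq2) and 22.6% against pKO (33.3% under total count scaling, 43.7% by DESeq2). Total count scaling shifted the median log2 change of all genes to 0.28 at 24-30hpi and −0.66 at 48-54hpi. Correlations of deviations between libraries of the same replicate number lay between −0.07 and 0.23, and exceeded 0.1 in every pair of 1 of 15 comparisons, pKO against ctrl, which has 2 pairs; the numbers were not taken to pair the samples. The replicate block called 2064 genes in libraries labelled KO against ctrl and put Fgf4 at −1.52 (adjusted p = 0.0170). Depth limits Etv4, whose reads were too few to test.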

Other observations

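Downstream kinases and early targets of the pathway had courses of their own. Mapk3, which encodes ERK1, averaged 107 ± 8.64 CPM at 0-6hpi and 27.0 ± 1.65 CPM in MII oocytes (log2 fold change 1.98, adjusted p = 6.68e-10), and Rras2, a RAS-related GTPase, rose at the same step by 1.38 (adjusted p = 2.96e-08). Map2k1, which encodes MEK1, was an abundant maternal transcript like Spry4 and fell by 3.45 at 90-96hpi against MII, to 55.8 ± 5.80 CPM, against 611 ± 24.2 CPM in MII oocytes (adjusted p = 1.73e-23). Myc had 0 reads at 0-6hpi and 16 reads at 6-12hpi, and rose further at 12-18hpi (2.75, adjusted p = 1.12e-05), before the onset of Fgf4. Sos1, the exchange factor that GRB2 carries to RAS, averaged 33.6 ± 3.10 CPM at 24-30hpi and 11.3 ± 2.18 CPM at 18-24hpi (1.58, adjusted p = 3.40e-05), the step at which Grb2 was first called higher. At 70-76hpi the ERK phosphatase gene Dusp4 averaged 58.8 ± 2.14 CPM, and 2.73 ± 0.717 CPM at 48-54hpi (4.42, adjusted p = 8.27e-11), while Dusp6 fell at that step. At 90-96hpi against 70-76hpi, Flrt3, a membrane protein known to associate with FGF receptors, rose by 5.60 (adjusted p = 2.23e-11), and Klb, the co-receptor of endocrine FGFs, fell by 2.92 (adjusted p = 8.41e-08). Flrt3 had only 8 reads at 70-76hpi and averaged 13.8 ± 5.36 CPM at 90-96hpi, under its highest window mean of 28.9 CPM at 18-24hpi.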
